A study of Rattus norvegicus with 6 samples.

Results

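The genes described here are the 8 voltage-gated calcium channel alpha1 subunits Cacna1a, Cacna1b, Cacna1c, Cacna1d, Cacna1e, Cacna1g, Cacna1h and Cacna1i, out of 43350 gene rows in the table. For each symbol the row of protein-coding type was taken first, and among several the row with the most counts. Cacna1i had no protein-coding row, and its row is typed as a processed transcript. The RNA came from ipsilateral lumbar L4-6 dorsal root ganglia (DRG) of male Sprague-Dawley rats 11 days after surgery, with no allele or drug that differed between the groups. The 3 CCI rats had a chronic constriction injury, in which loose ligatures were tied around the left sciatic nerve, and the 3 sham rats had the nerve exposed without ligation. The ganglion is bulk tissue that holds injured and uninjured neurons together with glia, vessels and immune cells, so fewer cells of a type and less RNA per cell cannot be told apart. Library totals lay between 75423546 and 87615743 counts. The question of the comparison was which genes differ in DRG after the nerve injury.

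The alpha1 subunit forms the pore and the voltage sensor of a calcium channel, and it sets the name of the current. Cav1 channels (Cacna1c, Cacna1d) carry L-type current, which couples depolarisation to gene expression and firing. Cav2 channels (P/Q-type Cacna1a, N-type Cacna1b and R-type Cacna1e) sit at nerve terminals and trigger transmitter release, and N-type channels on primary afferents are the target of the analgesic ziconotide. Cav3 channels (Cacna1g, Cacna1h, Cacna1i) carry T-type current, which opens near the resting potential, and Cav3.2 is the main T-type channel of small and medium sensory neurons. The alpha2delta and beta subunits bring alpha1 to the membrane and tune its gating.

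None of the alpha1 genes passed the calling limits in CCI against sham. Among the genes above the filter, the N-type gene Cacna1b had the lowest p, with all 3 CCI libraries above all 3 sham libraries and a fold of 1.23. Cacna1a, Cacna1c, Cacna1d and Cacna1e had log2 fold changes between -0.10 and 0.08, and the T-type genes Cacna1h, Cacna1i and Cacna1g had values between -0.56 and -0.25. Of the 8 genes, 7 had a mean FPKM of at least 0.5 and were tested, and Cacna1g lay below that filter. With edgeR's quasi-likelihood test, 0 of the 7 were called higher and 0 lower at an unadjusted p under 0.05 and an absolute log2 fold change no smaller than 0.58, where 2.57% of all 26663 tested rows were called higher and 1.26% lower. At a Benjamini-Hochberg adjusted p under 0.05 the count was also 0, against 0.0938% of all rows. At an unadjusted p under 0.05 with no limit on the fold it was 1 of 7, against 10.7% of all rows, and limma and DESeq2 likewise called 0 at the fold limits. The groups did not overlap, with CCI higher, for 1 of the 7 (8.63% of all rows), and with CCI lower for 0 (8.70% of all rows). The median log2 fold change of the 7 genes was -0.05, and that of all tested rows was 0.01.

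**Figure D1:**
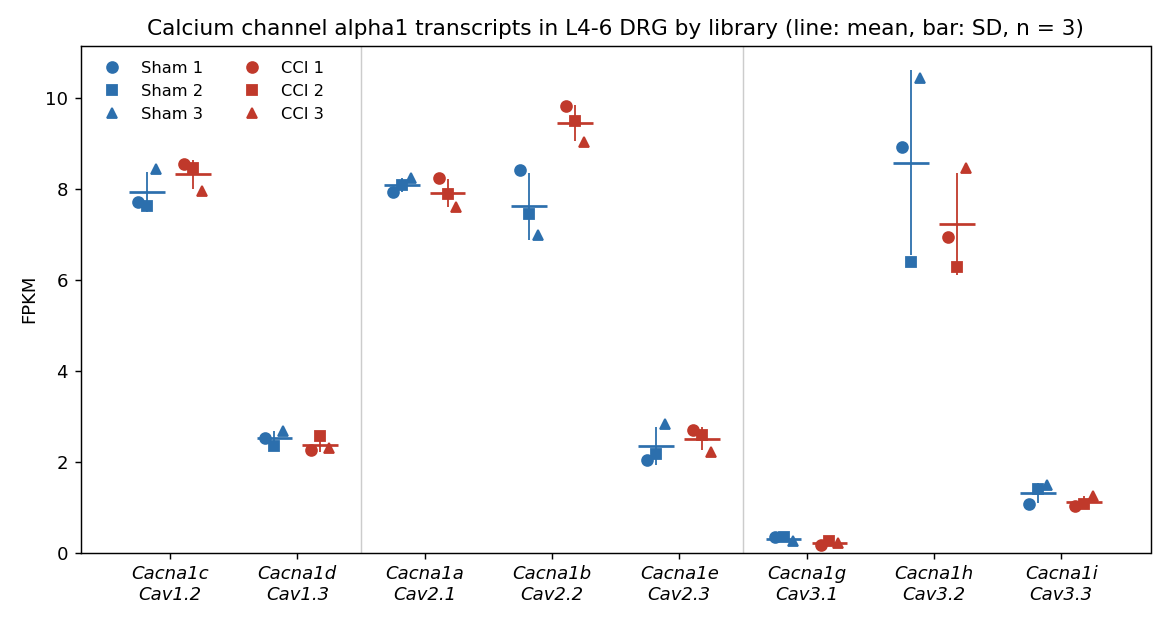
FPKM (vertical axis) of the 8 alpha1 genes in each of the 3 sham (blue) and 3 CCI (red) libraries, with the mean as a horizontal line and the SD as a bar, and vertical lines between the Cav1, Cav2 and Cav3 families. Cacna1b is the gene above the filter whose CCI libraries (9.02 to 9.83) all sit above its sham libraries (6.99 to 8.41), while Cacna1h spreads from 6.28 to 10.4 over both groups.

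Levels between genes were compared as FPKM, which divides by the length of the row. In sham DRG the highest mean was that of Cacna1h at 8.58 ± 2.04 FPKM (SD, n = 3), followed by Cacna1a at 8.08 ± 0.154, Cacna1c at 7.93 ± 0.442 and Cacna1b at 7.61 ± 0.727. The library ranges of these 4 genes overlapped, so their order in sham is not resolved beyond the spread. Cacna1d (2.52 ± 0.162 FPKM) and Cacna1e (2.35 ± 0.417 FPKM) formed a lower pair that also overlapped. Cacna1i followed at 1.31 ± 0.223 FPKM and Cacna1g at 0.310 ± 0.0452 FPKM, and neither overlapped with its neighbours.

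In CCI DRG Cacna1b stood first at 9.45 ± 0.406 FPKM, and its lowest library (9.02) lay above the highest of Cacna1c (8.54). Cacna1c (8.32 ± 0.319 FPKM), Cacna1a (7.91 ± 0.315 FPKM) and Cacna1h (7.23 ± 1.12 FPKM) overlapped with their neighbours in the order. Cacna1e (2.51 ± 0.253 FPKM) and Cacna1d (2.37 ± 0.162 FPKM) again overlapped, and Cacna1i (1.12 ± 0.120 FPKM) and Cacna1g (0.212 ± 0.0464 FPKM) closed the order. Within single libraries Cacna1b ranked 1 in all 3 CCI libraries and 2, 3 and 4 in the sham libraries, while Cacna1i ranked 7 and Cacna1g ranked 8 in all 6. These levels rest on assembled row lengths, worked back from counts and FPKM, from 7637 bases (Cacna1i) to 36669 bases (Cacna1b). A row that merges many transcripts is divided by a longer length. Of the 21 transcripts in the Cacna1b row 19 carried assembled names, as did 14 of 15 in the Cacna1a row. In CPM, which are counts scaled to a common library total and not divided by length, the order over all libraries was Cacna1b, Cacna1a, Cacna1c, Cacna1h, Cacna1e, Cacna1d, Cacna1i and Cacna1g.

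Cacna1b, the pore of the N-type channel Cav2.2, lies on chromosome 3 from 1739964 to 1924956 on the minus strand of the rat genome the authors call V101. Its FPKM was 9.83, 9.50 and 9.02 in CCI 1, 2 and 3 and 8.41, 7.44 and 6.99 in sham 1, 2 and 3. The lowest CCI library was thus above the highest sham library. In CPM the means were 345 ± 16.2 in CCI and 281 ± 24.6 in sham (SD, n = 3). By edgeR's quasi-likelihood test the log2 fold change was 0.30 (SE 0.08, 95% interval 0.11 to 0.48), or 1.23-fold (1.08 to 1.40), with an unadjusted p of 0.00731 and a Benjamini-Hochberg adjusted p of 0.261 over all tested rows. The interval lay under the fold limit of 0.58. With DESeq2 the adjusted p was 0.0711, and over all alternatives it ranged from 0.0711 to 0.713.

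Of 7 neuron markers 0 were called, where 2.57% of all tested rows were called higher and 1.26% lower. The median log2 fold change of these markers was 0.05, with 5 positive and 2 negative values from -0.24 (Rbfox3) to 0.31 (Tubb3). Their summed CPM, to which abundant genes such as Tubb3 and Prph add most, lay between 6100 and 6527 in CCI and between 4989 and 5824 in sham, without overlap. Tubb3 (neuronal beta-tubulin, log2 fold change 0.31) and Prph (peripherin, 0.25) did not overlap between the groups in the higher direction (8.63% of all rows). Isl1 (a sensory neuron transcription factor, -0.13) did not overlap in the lower direction (8.70% of all rows). Scaled to the sum of the neuron markers, a choice made after seeing the data, the log2 fold change of Cacna1b was 0.086 with an unadjusted p of 0.493 in edgeR. Scaled to their geometric mean, which gives each marker equal weight, it was 0.222 with an unadjusted p of 0.114. Those scalings moved the median of all rows by -0.203 and -0.068. Relative to that median Cacna1b was at 0.284 under both, against 0.290 without them. Such a scaling moves all rows by nearly the same amount. The distance from the median is thus kept by construction and gives no further support for a difference in Cacna1b.

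Cacna1a, the pore of the P/Q-type channel Cav2.1, lies on chromosome 19 from 25453344 to 25749550. It had 8.23, 7.89 and 7.61 FPKM in CCI 1, 2 and 3 and 7.93, 8.09 and 8.23 in sham 1, 2 and 3. The groups overlapped throughout, and the log2 fold change was -0.05 with a 95% interval from -0.18 to 0.08. The ratio of Cacna1b to Cacna1a counts, which does not depend on library scaling, was 1.80, 1.81 and 1.79 in CCI 1, 2 and 3 and 1.60, 1.39 and 1.28 in sham 1, 2 and 3. The ratios of the groups did not overlap (1.80 ± 0.013 in CCI and 1.42 ± 0.163 in sham, SD). A two-sided exact permutation test gave p = 0.1, the smallest value that 3 against 3 libraries allow. The ratio was not among the planned comparisons, and Cacna1b by itself already separated the groups. That p follows from the lack of overlap, so the ratio is no independent support.

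The windows of 250 bases before the annotated starts of these genes are shown because their counts were set against each other above. They come from RefSeq on the build GRCr8, which is not the build of the count table, and they are written in the direction of the gene, with GC boxes (GGGCGG on either strand) and CCAAT boxes (CCAAT on either strand) in capitals. Cacna1b is at chr3:27944286-27944535 and Cacna1a at chr19:40650469-40650718, both on the minus strand of that build.
Cacna1b: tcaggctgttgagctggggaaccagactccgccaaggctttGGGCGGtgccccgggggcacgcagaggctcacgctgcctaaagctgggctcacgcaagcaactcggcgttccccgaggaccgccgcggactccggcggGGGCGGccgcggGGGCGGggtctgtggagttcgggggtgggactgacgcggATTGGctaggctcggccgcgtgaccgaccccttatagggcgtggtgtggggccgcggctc
Cacna1a: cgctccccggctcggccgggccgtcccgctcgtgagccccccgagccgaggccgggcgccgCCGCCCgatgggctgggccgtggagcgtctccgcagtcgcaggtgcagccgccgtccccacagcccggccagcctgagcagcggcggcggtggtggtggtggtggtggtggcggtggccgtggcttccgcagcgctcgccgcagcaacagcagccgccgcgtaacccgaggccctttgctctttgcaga
The Cacna1b window held 3 GC boxes, 1 CCAAT box and 28 CpG pairs at 72.0% GC. The Cacna1a window held 1 GC box, 0 CCAAT boxes and 34 CpG pairs at 76.8% GC. Among 33469 promoter windows of the same length the median GC content was 51.2%, a GC box was present in 30.5% and a CCAAT box in 34.0%. Windows were matched for 5 of the 8 genes, of which Cacna1d had 9 GC boxes at 88.8% GC, while Cacna1c (54.4% GC) and Cacna1e (51.2% GC) had 0. Letters of the AP-1 motif (TGANTCA, in 6.3% of all windows), the cyclic AMP response element (TGACGTCA, 1.6%), the TATA box (TATAAA, 12.9%) and an E-box (CACGTG, 5.6%) were not in any of the 5 windows, which says only that these letters are absent from them.

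Cacna1e, the pore of the R-type channel Cav2.3 on chromosome 13 from 71899492 to 72368751, had 2.70, 2.60 and 2.22 FPKM in CCI and 2.04, 2.18 and 2.82 in sham. The highest value of all was that of sham 3, and the groups overlapped. Its log2 fold change was 0.08 with a 95% interval from -0.27 to 0.43, and the sign turned (-0.019) without sham 1.

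The L-type genes showed narrow intervals around 0. Cacna1c (Cav1.2, chromosome 4 from 150635808 to 151176737) had 8.54, 8.46 and 7.96 FPKM in CCI and 7.72, 7.63 and 8.44 in sham. Its log2 fold change was 0.05 with a 95% interval from -0.10 to 0.21. Cacna1d (Cav1.3, a channel that opens at more negative potentials than Cav1.2, chromosome 16 from 6110381 to 6405117) had 2.26, 2.56 and 2.30 FPKM in CCI and 2.53, 2.35 and 2.67 in sham. Its log2 fold change was -0.10 with a 95% interval from -0.30 to 0.09. For both L-type genes and for Cacna1a and Cacna1e, these intervals lay inside the fold limits of 0.58 in either direction.

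Each T-type gene had a lower mean in CCI, and for the scarcest one the groups did not overlap in CPM. Cacna1h (Cav3.2, chromosome 10 from 14730941 to 14789064) had 6.93, 6.28 and 8.46 FPKM in CCI and 8.92, 6.39 and 10.4 in sham. Sham 2 lay among the CCI libraries, the SD of the sham group was the widest of the 8 genes, and the 95% interval of the log2 fold change of -0.26 ran from -0.73 to 0.20. Without sham 2 the value was -0.436, with an unadjusted p of 0.0273 and an adjusted p of 0.528 in edgeR. Without sham 3 it was -0.094 with an unadjusted p of 0.629, and over its alternatives it ranged from -0.473 to -0.094.

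Cacna1i (Cav3.3, chromosome 7 from 121511097 to 121619283) had 1.03, 1.08 and 1.25 FPKM in CCI and 1.06, 1.40 and 1.48 in sham. Sham 1 lay within the CCI range, and the log2 fold change was -0.25 with a 95% interval from -0.64 to 0.14. Leaving out 1 library moved it between -0.387 (without sham 1, unadjusted p of 0.0313 and adjusted p of 0.459 in edgeR) and -0.15 (without sham 3, unadjusted p of 0.428).

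Cacna1g (Cav3.1, chromosome 10 from 82129506 to 82197848) rested on few reads, with 117, 178 and 130 counts in CCI and 248, 229 and 183 in sham. In CPM it was 1.44, 2.21 and 1.71 in CCI and 2.83, 2.89 and 2.22 in sham, where the highest CCI library lay just under the lowest sham library. In FPKM those libraries were in the other order (0.262 in CCI 2 and 0.258 in sham 3), so the groups overlapped. A fit of all rows without a filter gave a log2 fold change of -0.56 (SE 0.23, 95% interval -1.12 to -0.01) with an unadjusted p of 0.0459 and an adjusted p of 0.553 in edgeR, short of the fold limit. Without CCI 1 it was -0.434 with an unadjusted p of 0.122, and without CCI 2 it was -0.747 with an unadjusted p of 0.0219, past both limits. Without sham 3 (-0.678, unadjusted p of 0.0383) it also passed both.

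**Figure D2:**
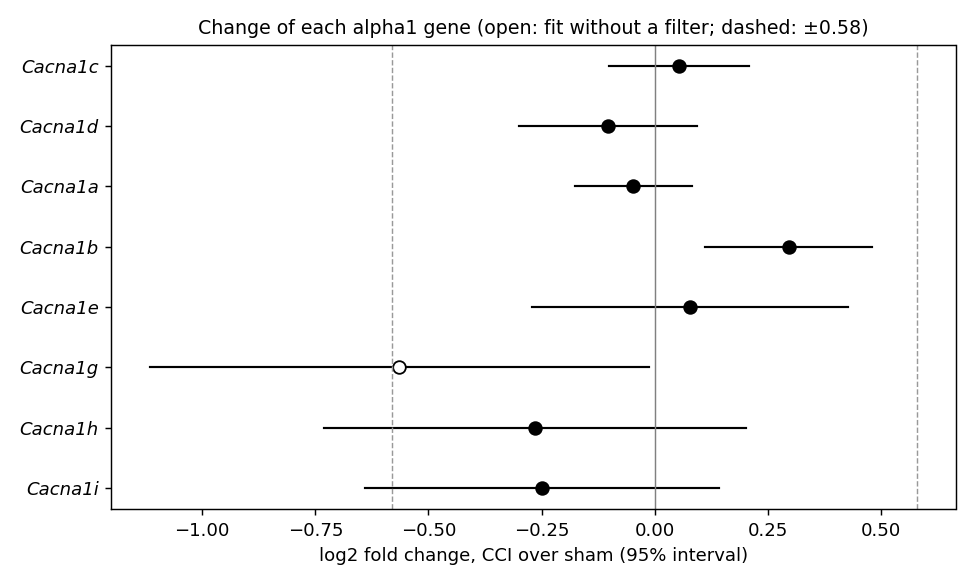
Log2 fold change of CCI over sham (horizontal axis) for the 8 alpha1 genes, with the 95% interval as a bar, dashed lines at 0.58 in either direction and an open point for Cacna1g, which was fitted without a filter on low values. The intervals of Cacna1b (0.11 to 0.48) and Cacna1g (-1.12 to -0.01) leave out 0, and those of the other genes include it.

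The summed FPKM of the 8 genes was 39.1 ± 0.54 in CCI and 38.7 ± 2.76 in sham (SD, n = 3), and the groups overlapped. Within that sum Cacna1b made up 24.8%, 24.6% and 23.1% in CCI 1, 2 and 3 and 21.6%, 20.8% and 16.9% in sham 1, 2 and 3, without overlap. The Cav2 family held 50.8% ± 2.17 in CCI and 46.8% ± 2.90 in sham, the Cav3 family 21.9% ± 3.09 and 26.2% ± 3.38, and the Cav1 family 27.3% ± 1.13 and 27.0% ± 0.79. The family shares overlapped between the groups in FPKM. Without sham 3 the Cav2 difference of 4.02 points was 2.48 points, and the Cav3 difference of -4.34 points was -2.72 points. Taken as shares of counts in place of FPKM, the Cav2 family held 71.0% in CCI and 67.6% in sham without overlap, and the Cav3 family 9.08% and 11.6% with overlap, a difference of -2.47 points.

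**Figure D3:**
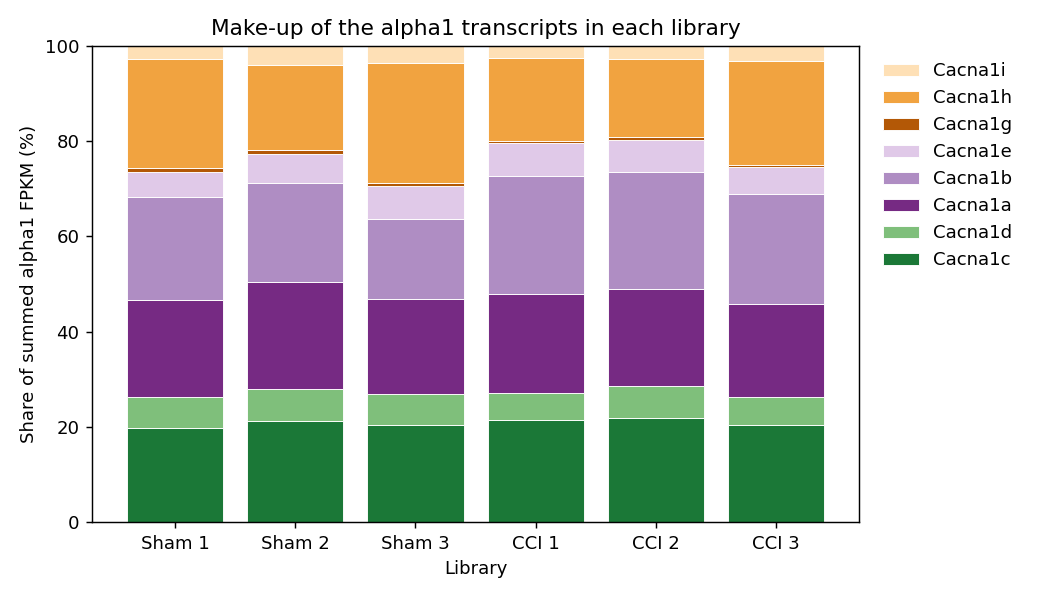
Stacked bars of the share (percent, vertical axis) of each alpha1 gene in the summed alpha1 FPKM of each library, with Cav1 genes in green, Cav2 genes in purple and Cav3 genes in orange. Cacna1b takes 16.9% to 21.6% in the sham libraries and 23.1% to 24.8% in the CCI libraries, and Cacna1h takes 16.3% to 25.2% over all libraries.

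Across the 6 libraries, the protein-coding genes whose log2 CPM followed Cacna1b most closely were Slc43a3 (Pearson r = 0.991) and Cyp3a9 (r = 0.988), out of 12012 candidates of which 204 had r above 0.9. Cacna1a was followed by Ncald (r = 0.996), which codes for the neuronal calcium sensor neurocalcin delta, and by Supt5h (r = 0.981). Cacna1c was followed by Garnl3 (r = 0.997) and Nedd4l (r = 0.989), and Cacna1d by Mad1l1 (r = 0.985) and Myt1l (r = 0.979). Cacna1e was followed by Nfya (r = 0.994) and Clcn5 (r = 0.986). Among the T-type genes, Cacna1h was followed by Kcnip1 (r = 0.986) and Parl (r = 0.985), Cacna1g by Cab39 (r = 0.993) and P2rx5 (r = 0.987), and Cacna1i by Hmgxb3 (r = 0.991) and Eef1akmt4 (r = 0.988). With 6 libraries that share their depth and their group structure, between 56 and 230 genes reached r above 0.9 for each alpha1 gene, so these names are a description.

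Among the auxiliary subunits, Cacna2d1, the alpha2delta-1 subunit that binds gabapentinoids, was called higher in CCI. The study had already reported it as higher in these same libraries. It had 779, 525 and 463 CPM in CCI 1, 2 and 3 and 260, 259 and 256 in sham 1, 2 and 3, a log2 fold change of 1.19 (SE 0.19) with an unadjusted p of 0.000523 and an adjusted p of 0.109 in edgeR. Cacna2d3 had 80.6 ± 2.95 CPM in CCI and 103 ± 2.34 in sham (SD, n = 3), and the log2 fold change of -0.35 was under the fold limit although the groups did not overlap. Cacna2d2 had a log2 fold change of -0.07, and Cacna2d4 lay under the filter. Of 3 tested alpha2delta genes, 1 was called higher and 0 lower, against 2.57% and 1.26% of all tested rows.

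Of the 4 beta subunit genes, 0 were called, where 2.57% of all tested rows were called higher and 1.26% lower. Their median log2 fold change was 0.18. Cacnb1 (0.42) and Cacnb2 (0.35) were above sham in every CCI library, as were 8.63% of all rows, and Cacnb3 (0.01) and Cacnb4 (-0.05) overlapped. Of 6 tested gamma genes, 1 was called lower, against 1.26% of all tested rows. It was Cacng2, or stargazin, which is known above all as an AMPA receptor partner (log2 fold change -0.63, 27.7 ± 1.80 CPM in CCI and 42.7 ± 2.85 in sham).

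Among 4 tested STAC and RGK regulators, 1 was called higher and 1 lower, against 2.57% and 1.26% of all tested rows. Stac2, an adaptor that slows the inactivation of L-type channels, had 49.3, 30.0 and 26.2 CPM in CCI 1, 2 and 3 and 1.37, 1.53 and 2.08 in sham 1, 2 and 3. Its log2 fold change was 4.40 (SE 0.31) with an adjusted p of 0.0105 in edgeR, and it was the one gene of the calcium channel lists to pass the adjusted limit. The study had already reported Stac2, too, as higher in these same libraries. Stac2 (85988367 to 86004209) and Cacnb1 (85954138 to 85974651) lie next to each other on chromosome 10. Rem2, a small GTPase of the RGK family that inhibits calcium currents through the beta subunit, had 4.92 ± 0.137 CPM in CCI and 9.79 ± 1.27 in sham (log2 fold change -0.99, adjusted p of 0.0798 in edgeR).

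Among 21 tested binding partners, which include calmodulin, CaM kinase, syntaxin and RIM genes, 0 were called higher and 1 lower. The shares over all tested rows were 2.57% and 1.26%. The median log2 fold change of the partners was 0.02. The gene called lower was Kcnip3, a neuronal calcium sensor that also binds potassium channels. It had 43.4, 84.5 and 88.2 CPM in CCI and 116, 134 and 121 in sham (log2 fold change -0.78, SE 0.26), so CCI 1 was the lowest by far. The genes for CRMP2 and USP5, proteins known to bind Cav2.2 and Cav3.2 in that order, had log2 fold changes of 0.02 (Dpysl2) and -0.05 (Usp5). Without overlap between the groups, 4 partners were higher in CCI (8.63% of all rows) and 2 lower (8.70% of all rows). The largest value of the list was that of Camk2d (0.51), 1 of those 4 and under the fold limit.

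Of 10 tested genes of store release and store-operated entry and 9 of calcium clearance, 0 were called, and each list had a median log2 fold change of -0.05. Over all tested rows 2.57% were called higher and 1.26% lower. In the release and entry list 3 genes were below sham in every CCI library, and in the clearance list 1, against 8.70% of all rows. They were Ryr2 (-0.21), a release channel of the endoplasmic reticulum, Ryr3 (-0.13), Stim2 (-0.12) and the pump gene Atp2a2 (-0.21). The sodium channel alpha subunits, which share their plan of repeated domains with the calcium channel pores, had 0 of 7 called and a median of -0.21. There 3 of the 7 were below sham in every CCI library, against 8.70% of all rows. They were Scn1a (log2 fold change -0.53) and Scn8a (-0.44), the channels Nav1.1 and Nav1.6, and Scn11a (-0.15), and they stayed under the fold limit. Of the 7 values 6 were negative and 1 positive. The positive one, Scn3a (0.81), was past the fold limit but not called, with an unadjusted p of 0.0602 in edgeR. Its CPM was 34.65, 29.25 and 28.66 in CCI 1, 2 and 3 and 11.79, 28.88 and 12.24 in sham 1, 2 and 3, so the groups overlapped.

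**Figure D4:**
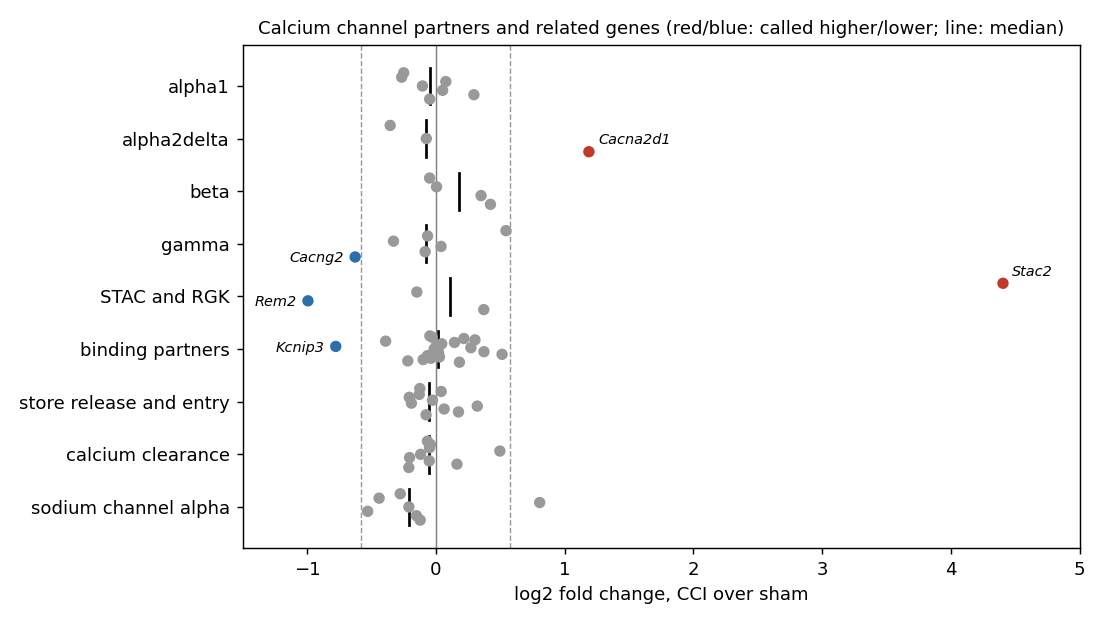
Log2 fold change of CCI over sham (horizontal axis) for each tested gene (point) of the alpha1, auxiliary, regulator, partner, calcium handling and sodium channel lists, with the list median as a black line, dashed lines at 0.58 in either direction, and genes called higher in red and lower in blue. The 7 alpha1 genes lie between -0.26 and 0.30, while Stac2 (4.40) and Cacna2d1 (1.19) lie to the right and Rem2 (-0.99), Kcnip3 (-0.78) and Cacng2 (-0.63) to the left.

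Marker genes of the labelled tissue and injury were read from the same fit. All 6 injury markers were called higher in CCI, among them Atf3 (log2 fold change 3.47), and 0 of 8 nociceptor markers were called. Of all tested rows, 2.57% were called higher and 1.26% lower. The study had already reported these 6 genes, and Cd68, Csf1r and Cx3cr1 below, as higher in these same libraries. Their calls are therefore no independent check of the labels. Among 7 markers of large neurons 1 was called lower, Pvalb (-0.69), and their summed level was 3751 to 4080 CPM in CCI and 4812 to 5328 in sham. Most of that sum was the neurofilament gene Nefh, with a mean of 2393 CPM in CCI and 3492 in sham. Of the 7 genes, 6 had negative values and 1, Spp1 (0.25), a positive value. Macrophage markers had 3 of 7 called higher (Cd68, Csf1r and Cx3cr1), with summed levels of 86.8 to 128 in CCI and 64.5 to 85.8 in sham, and 0 of 5 Schwann cell, 0 of 4 satellite glia, 0 of 4 smooth muscle, 0 of 4 fibroblast and 0 of 2 endothelial markers were called. The 3 T cell markers lay under the filter, and Cldn5 was at 0 counts. Of 7 tested skeletal muscle markers 5 were called lower in CCI and 0 higher. All 7 had negative values, with a median log2 fold change of -3.41. Skeletal muscle markers summed to 396 CPM in sham 1, 50.8 in sham 3 and 8.90 to 24.2 in the other libraries. Without sham 1 the log2 fold change of Cacna1b was 0.367 with an unadjusted p of 0.00196 and an adjusted p of 0.262 in edgeR. The part of the cell type markers in the values of the alpha1 genes was not tested. The scaling to neuron markers moved all rows by nearly the same amount and is no such test.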

How the data were processed

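Total RNA was depleted of ribosomal RNA and sequenced in paired ends, with 1 library per rat by the study's methods, although the labels speak of a pooled sample. The submitters' processing notes name HISAT2 2.0 and StringTie 1.3.0. Reads were aligned by the authors to a rat genome named V101, and they deposited raw read counts per assembled gene row. The authors also deposited FPKM values, which divide those counts by row length and library total. Whether the counting used strand is not given in the sources used here. The 6849 rows that have no symbol, with 5.37% to 5.72% of counts, were kept in the fit as assembled loci.

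Counts were fitted in edgeR 4.0.16 (R 4.3.3, TMM factors 0.988 to 1.01, quasi-likelihood with a trended prior) for the 26663 rows whose mean FPKM reached 0.5. Calls needed an unadjusted p under 0.05 together with an absolute log2 fold change no smaller than 0.58, the study's limits, and Benjamini-Hochberg adjustment ran over all tested rows. Standard errors and 95% intervals came from the quasi-likelihood F statistic. Alternatives were limma 3.58.1 on log2(FPKM + 0.1) and log2(FPKM + 1), DESeq2 1.42.0, other filters and size factors, a prior without trend, protein-coding rows alone, all rows of a symbol summed, a replicate block and leaving out each library. Scaling to neuron markers was added after seeing the data, and the ratio of Cacna1b to Cacna1a was not among the planned comparisons. The 8 genes and the lists were chosen with earlier results of these data known. Named are the 8 genes, list genes that passed the limits or whose level a sentence needs, and the 2 genes of protein-coding type with a mean FPKM of at least 1 most correlated with each. Promoter windows were searched with Python 3.11.15, and precision rests on counts of 1085 (Cacna1g) to 152538 (Cacna1b) over the 6 libraries.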

Additional observations from a re-analysis of the deposited data

How the results depend on the processing

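Over all settings run, 0 of the 7 tested alpha1 genes were called higher or lower. Cacna1g, fitted without a filter, passed both limits in 4 settings (without CCI 2, without sham 3 and under both scalings to neuron markers). Over all settings Cacna1b kept a positive and Cacna1a, Cacna1d, Cacna1g, Cacna1h and Cacna1i a negative log2 fold change. The value of Cacna1b ranged from 0.086 to 0.367 and stayed at an unadjusted p under 0.05 in all but the scalings to neuron markers. Leaving out 1 library gave 0.243 to 0.367 for it. Scaled to the sum of neuron markers, Cacna1c was -0.149, Cacna1e -0.122 and Cacna1g -0.764, with a median of the members of -0.25, and 345 rows were called higher and 920 lower. Scaled to their geometric mean, Cacna1c was -0.012 and Cacna1g -0.639. These scalings moved the median of all rows by -0.203 and -0.068. Relative to it Cacna1c was at 0.049 and 0.050, against 0.048 without them, a distance that such a scaling keeps by construction. Leaving out 1 library moved Cacna1g between -0.747 (without CCI 2) and -0.434 and Cacna1e between -0.019 and 0.238. Over all rows, 686 were called higher, 336 lower and 25 at the adjusted limit. With limma on log2(FPKM + 1) these counts were 400, 150 and 13, and with protein-coding rows alone, where fewer rows are tested, 353, 115 and 76. The adjusted count was 747 with DESeq2, 14 with a prior without trend and 6 (without CCI 2) to 61 (without CCI 1) when 1 library was left out. The Cav1 share, 0.31 points higher in CCI in FPKM, was -0.89 points with counts. Where not stated, the cause was not tested.

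Replicate numbers gave no sign of pairing over all rows. Same-numbered CCI and sham libraries had correlations of deviations of -0.011, -0.026 and -0.074, which with 3 libraries per group cannot exclude pairing. With the replicate block 0 rows passed the adjusted limit and 617 and 318 were called higher and lower. The block gave 0.299 for Cacna1b and -0.246 for Cacna1h (unadjusted p of 0.0435 in edgeR). Cacna1i has no value with protein-coding rows alone.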

Other observations

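Cacna1s and Cacna1f, the alpha1 genes known from skeletal muscle and retina, lay under the filter. Reads on Cacna1s numbered 19, 26 and 11 in CCI 1, 2 and 3 against 361, 30 and 52 in sham 1, 2 and 3, and the high library, sham 1, is also the one with the highest sum of skeletal muscle markers. Ryr1, the muscle ryanodine receptor, had 22.8 CPM in sham 1 and 1.53 to 2.42 in the other libraries. For Cacna1f the counts were 25, 22 and 19 in the CCI group against 50, 12 and 13 in the sham group.

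Further assembled rows carried the symbols of 4 of the 8 genes with reads. A row of 1078 bases without a strand that carries the symbol Cacna1e drew 355, 372 and 0 reads in CCI 1, 2 and 3 against 408, 0 and 366 in sham 1, 2 and 3, so that 1 library of each group was at 0. A row of 2304 bases held 28.7% of all reads under the symbol Cacna1i, and summing both rows gave a log2 fold change of -0.314 with an unadjusted p of 0.11 in edgeR. Rows on the strand opposite to Cacna1a held 2.19% of the reads under that symbol, and for Cacna1b such rows held 0.943%, 0.645% and 2.09%. Summing all rows of Cacna1b gave a log2 fold change of 0.288.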
